A study of Danio rerio with 30 samples.

Results

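C1q is the molecule that starts the classical pathway of complement, and c1qa, c1qb and c1qc encode the A, B and C chains from which it is built. The 3 genes were found by their zebrafish gene names among the 31901 gene IDs of a count table from spleen: c1qa is ENSDARG00000044613, c1qb is ENSDARG00000044612 and c1qc is ENSDARG00000095627. All 3 passed the filter on low counts, as did 17841 genes in all. In the RefSeq annotation of another zebrafish assembly, GRCz12tu, they are consecutive neighbours on 1 chromosome in the order c1qb, c1qc, c1qa. The series asks whether the temperature at which embryos and larvae were kept affects immunity in adults. AB strain zebrafish were incubated at 24, 28 or 32 °C and then held as adults at 28 °C. At 100 days, LPS fish received 2 µl of lipopolysaccharide (LPS, the outer membrane glycolipid of Gram-negative bacteria) from Pseudomonas aeruginosa at 50 mg/ml into the body cavity, and their spleens were taken 12 h later. There were 5 LPS fish and 5 control fish at each incubation temperature, and the labels do not say what the controls received or the sex of any fish. The labels number the fish of a group without saying how they were housed, and the p-values rest on the spread among them.

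The A, B and C chains fold together through a collagen-like stalk and end in globular heads, and several such units form a bundle. The heads bind antibody on a target, C-reactive protein and surfaces of dying cells. The proteases C1r and C1s, held by the stalks, then cut C4 and C2, which leads to cleavage of C3. In mammals most complement components come from the liver, whereas C1q is made largely by macrophages and dendritic cells, and C1q mRNA is a usual mark of tissue macrophages in spleen.

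Libraries held 14840723 to 23401031 counts. Macrophage markers summed to between 4140 and 15205 CPM (counts scaled to the library total) in every library, B cell markers to between 266 and 981 CPM, and erythroid genes to between 91923 and 317219 CPM. A few libraries stood apart from the rest. In 24 °C control replicate 4, ovary markers summed to 11038 CPM and acinar pancreas markers to 72903 CPM, the highest of any library. In 32 °C control replicate 8, liver markers summed to 9734 CPM, against at most 1513 CPM in any other library. In 32 °C control replicate 2, 28134 genes had a count, against 19367 to 22887 in the others. The C1q comparisons that edgeR called, and the correlations between the chains, are also given without these 3 libraries. Only replicates 3, 6 and 10 then remain as 32 °C controls.

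All 3 chains were among the better expressed genes of the spleen. Raw counts per library were 700 to 5937 for c1qa, 1450 to 8716 for c1qb and 917 to 5942 for c1qc, so counting error was small beside the differences between fish. In CPM relative to the library size scaled by TMM (a trimmed mean of ratios between libraries), the scale of every level of a gene given below, the mean level over 30 fish was above that of 94.0% of tested genes for c1qa, 96.5% for c1qb and 94.4% for c1qc. The highest fish was 7.46-fold above the lowest for c1qa, 5.29-fold for c1qb and 5.70-fold for c1qc. For c1qa the group means were 120 ± 51.8 CPM in LPS fish and 133 ± 36.9 CPM in control fish at 24 °C (SD, n = 5 in every group here and below). They were 151 ± 44.1 CPM in LPS fish and 71.4 ± 33.1 CPM in control fish at 28 °C, and 87.8 ± 27.9 CPM in LPS fish and 215 ± 69.8 CPM in control fish at 32 °C. The order of the groups was nearly the same for each chain: 32 °C controls were highest, 28 °C LPS fish next, both 24 °C groups in the middle, then 32 °C LPS fish, and 28 °C controls lowest. Neighbours in this order overlapped for every chain. The extremes of the order were thus both control groups, with the LPS groups between them.

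**Figure D1:**
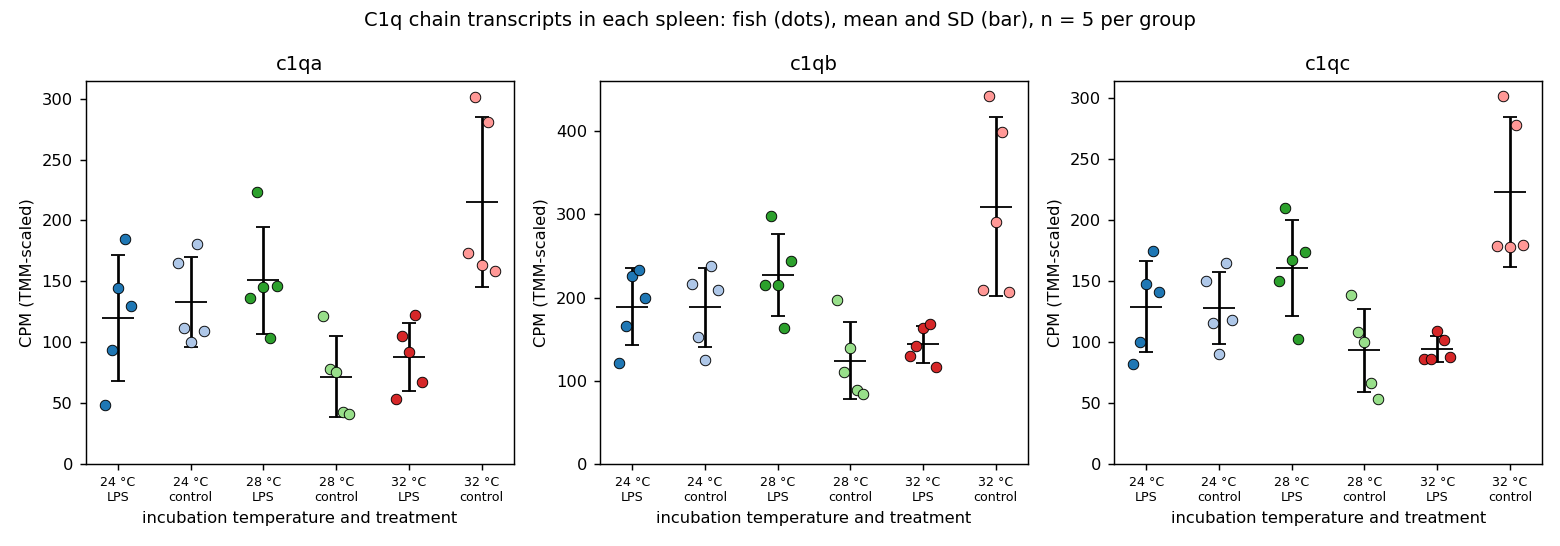
CPM of c1qa, c1qb and c1qc in each fish (dots), with the group mean (horizontal line) and SD (vertical bar), for 5 fish in each of the 6 groups. Control fish from 32 °C, between 158 and 301 CPM for c1qa, stand above both the 32 °C LPS fish (53.1 to 122 CPM) and the 28 °C control fish (40.4 to 121 CPM), while the 24 °C groups overlap.

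In fish from 28 °C, the standard rearing temperature, all 3 chains had higher means with LPS, by amounts that did not pass the threshold. For c1qa the LPS fish were at 136, 223, 145, 103 and 146 CPM, against 121, 78.1, 75.0, 42.3 and 40.4 CPM in control fish. For c1qb the LPS fish were at 215, 299, 216, 163 and 244 CPM, against 197, 111, 139.6, 88.9 and 83.6 CPM in control fish. For c1qc the LPS fish were at 149.6, 209.9, 167, 102 and 173 CPM, against 138, 108, 100.1, 66.5 and 52.9 CPM in control fish. LPS replicate 2 was the highest and LPS replicate 4 the lowest of the LPS fish for every chain, and control replicate 1 was the one control inside the range of the LPS fish for c1qa and c1qb. For c1qc, controls 1 and 2 both lay above the lowest LPS fish. Means were 227 ± 49.6 CPM in LPS fish and 124 ± 46.5 CPM in controls for c1qb, and 160.5 ± 39.3 CPM in LPS fish and 93.1 ± 34.1 CPM in controls for c1qc. The log2 difference, LPS minus control, was 1.08 ± 0.32 for c1qa (SE, adjusted p = 0.361 by edgeR's quasi-likelihood test over all tested genes). It was 0.87 ± 0.25 for c1qb (adjusted p = 0.324) and 0.78 ± 0.24 for c1qc (adjusted p = 0.367), and the 95% intervals ran from 0.41 to 1.75, 0.36 to 1.39 and 0.28 to 1.29. None of the chains was called at adjusted p under 0.05, where 0.0112% of tested genes were called. In whole spleen, fewer cells of a type and less RNA per cell cannot be told apart, here or in any comparison below.

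In fish from 32 °C the difference had the opposite sign and every LPS fish lay below every control fish. For c1qa the LPS fish were at 53.1, 105, 91.7, 122 and 67.3 CPM, against 173, 301, 163, 281 and 158 CPM in control fish. For c1qb the LPS fish were at 129, 142, 164, 168 and 116 CPM, against 209, 442, 290.5, 399 and 207 CPM in control fish. For c1qc the LPS fish were at 85.8, 85.9, 109, 102 and 87.8 CPM, against 179, 302, 177, 278 and 179.5 CPM in control fish. Control replicates 3 and 8 were the highest fish of the whole series for each chain, and the c1qc values of the LPS fish had the smallest SD of any chain in any group. Groups that did not overlap, with LPS lower, were found for all 3 chains and for 0.824% of tested genes. Means were 144 ± 22.1 CPM in LPS fish and 309.6 ± 108 CPM in controls for c1qb, and 94.1 ± 10.7 CPM in LPS fish and 223 ± 61.4 CPM in controls for c1qc. The log2 difference was -1.29 ± 0.33 for c1qa (adjusted p = 0.434), -1.11 ± 0.25 for c1qb (adjusted p = 0.411) and -1.25 ± 0.25 for c1qc (adjusted p = 0.136). By p before adjustment, c1qc ranked 3, c1qb 6 and c1qa 18 among the 17841 genes. None passed the threshold with edgeR, where 0.00561% of tested genes were called. With DESeq2, which called 16 of the 17841 genes here, c1qb (adjusted p = 0.0335) and c1qc (adjusted p = 0.00284) passed. The same 2 chains passed with summed acinar pancreas transcripts as a covariate (adjusted p = 0.0447 and 0.0221). These were the only 2 of 9 other settings in which they passed, and the fit without the 3 libraries that stand apart was not among them. Over the 9 settings the adjusted p reached 0.733 for c1qb and 0.563 for c1qc. c1qa passed in 0 of the 9, and each chain in 0 of 30 fits that left out 1 library.

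In fish from 24 °C the ranges of the LPS and control groups overlapped for every chain. For c1qa the LPS fish were at 48.2, 93.4, 144, 185 and 129 CPM, against 165, 111, 99.6, 181 and 109 CPM in control fish. For c1qb the LPS fish were at 121, 166, 226, 233 and 199 CPM, against 216, 152, 125, 238 and 209.6 CPM in control fish. For c1qc the LPS fish were at 81.5, 99.6, 147, 174 and 141 CPM, against 149.9, 116, 90.4, 165 and 118 CPM in control fish. LPS replicate 1 was the lowest of the LPS fish for every chain, and control replicate 4, the library with ovary transcripts, the lowest of the controls for c1qa, c1qb and c1qc. Log2 differences were -0.15 ± 0.32 for c1qa (adjusted p = 0.851), 0.01 ± 0.25 for c1qb (adjusted p = 0.994) and 0.01 ± 0.24 for c1qc (adjusted p = 0.990). The 95% intervals ran from -0.81 to 0.51 for c1qa, -0.50 to 0.52 for c1qb and -0.49 to 0.51 for c1qc, so a change of 2-fold in either direction, 1 on this scale, lay outside each. None of the chains was called, against 0.0168% of tested genes. Averaged over the 3 temperatures the LPS difference was -0.12 ± 0.18 for c1qa, -0.08 ± 0.14 for c1qb and -0.15 ± 0.14 for c1qc (adjusted p = 0.899, 0.923 and 0.845), and 0.0112% of tested genes were called. That average is over differences of opposite sign at 28 and 32 °C.

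The question of the series is whether incubation temperature changes the response to LPS, which is tested by the difference between responses. The C1q response at 32 °C was lower than that at 28 °C for all 3 chains. The difference of the log2 responses was -2.37 ± 0.46 for c1qa (adjusted p = 0.0292), -1.98 ± 0.35 for c1qb (adjusted p = 0.0159) and -2.03 ± 0.35 for c1qc (adjusted p = 0.0154). All 3 were called lower in a comparison in which 0.0897% of tested genes, 16 genes in all, were called lower, and their ranks by p over all genes were 11, 5 and 3. On a linear scale the ratio of LPS to control was 5.17-fold lower at 32 °C than at 28 °C for c1qa, 3.94-fold for c1qb and 4.09-fold for c1qc. Each of these differences draws on 20 fish, and both control groups at the extremes of the order of levels enter it.

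How firmly the 3 calls stood differed between chains. The call for c1qc held in every one of 30 fits that left out 1 library (values -2.16 to -1.83). The call for c1qb ended without any 1 of 28 °C control replicates 2 and 5, 28 °C LPS replicate 2, 32 °C control replicate 3 and 32 °C LPS replicates 2 and 5 (-1.91 to -1.78). The call for c1qa ended without any 1 of those 6 libraries, 28 °C control replicates 3 and 7, 32 °C LPS replicate 1, 24 °C control replicate 3 or 24 °C LPS replicates 2 and 8 (-2.38 to -2.09). Without the 3 libraries that stand apart, c1qb (-2.00, adjusted p = 0.0376) and c1qc (-2.01, adjusted p = 0.0376) kept their calls and c1qa did not (-2.32, adjusted p = 0.0916). In a fit of only the 20 libraries compared, no chain passed (-2.30, -1.91 and -1.96, adjusted p = 0.0643, 0.0643 and 0.0631), and no gene of the whole table did. With the replicate number added to the model as a block, no chain passed either, c1qc included. The values and a limit of that fit are given at the end.

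The 24 °C response did not differ from either of the others at the threshold. Minus the 28 °C response it was -1.23 ± 0.45 for c1qa (adjusted p = 0.130), -0.87 ± 0.35 for c1qb (adjusted p = 0.159) and -0.77 ± 0.34 for c1qc (adjusted p = 0.195), with 0.751% of tested genes called. The 32 °C response minus the 24 °C response was -1.14 ± 0.45 for c1qa (adjusted p = 0.451), -1.11 ± 0.35 for c1qb (adjusted p = 0.373) and -1.26 ± 0.34 for c1qc (adjusted p = 0.263), with 0.0224% called. For every chain the response at 24 °C lay between those at 28 and 32 °C.

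**Figure D2:**
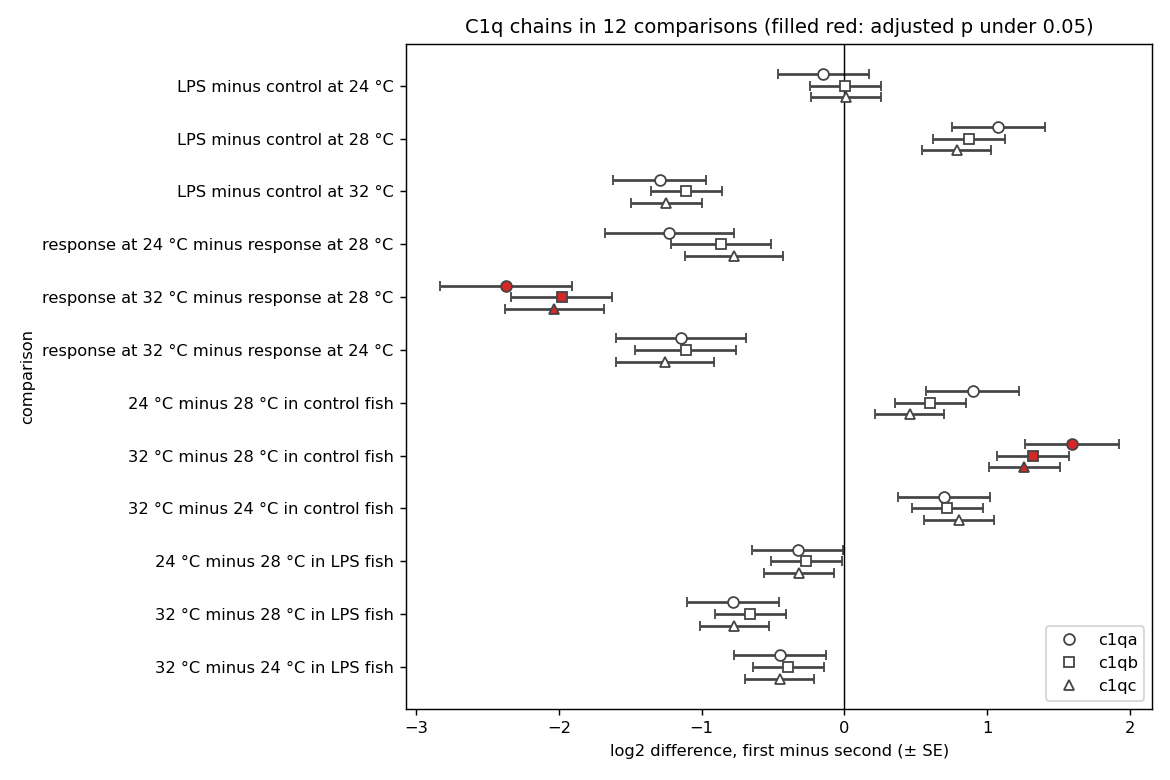
Log2 difference (first group minus second, with SE bars) of c1qa (circles), c1qb (squares) and c1qc (triangles) in 12 comparisons; red symbols passed an adjusted p of 0.05 by edgeR. The red symbols are the 3 chains in the difference between the 32 and 28 °C responses (-2.37 to -1.98) and in 32 °C against 28 °C control fish (1.26 to 1.59).

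Among control fish the chains rose with incubation at 32 °C relative to 28 °C. Every 32 °C control lay above every 28 °C control for all 3 chains, a separation found for 1.63% of tested genes. The mean was 215 ± 69.8 CPM in 32 °C controls and 71.4 ± 33.1 CPM in 28 °C controls for c1qa, a 3.01-fold difference in the fit. The fold was 2.49 for c1qb and 2.39 for c1qc. The log2 differences were 1.59 ± 0.33 for c1qa (adjusted p = 0.0278), 1.32 ± 0.25 for c1qb (adjusted p = 0.0176) and 1.26 ± 0.25 for c1qc (adjusted p = 0.0176). All 3 were called higher, against 0.42% of tested genes. These comparisons share their control fish with the differences between responses above, and the values are given side by side. All 3 calls ended without any 1 of 28 °C control replicates 2, 3, 5 and 7 and 32 °C control replicate 3 (1.09 to 1.57 over the chains), and that of c1qa also without 32 °C control replicate 8 (1.48). Sums of the MHC class II and neutrophil lists did not overlap between the same groups, while those of the macrophage, B cell and T and NK cell lists did. The MHC class II list summed to 1193 to 4902 CPM in 32 °C controls and 365 to 966 CPM in 28 °C controls. Neutrophil markers summed to 1249 to 2492 CPM in 32 °C controls and 2659 to 4183 CPM in 28 °C controls. Without the 3 libraries that stand apart, the ranges in 32 °C controls were 1193 to 2670 CPM and 1853 to 2492 CPM. By gene, the median log2 difference of the MHC class II list was 0.22, with 2 of 9 below 0. That of the neutrophil list was -1.02, with 18 of 19 below 0. Macrophage markers summed to 5112 to 13483 CPM in 32 °C controls and 7186 to 15205 CPM in 28 °C controls. The part of these lists in the C1q difference was not tested. The C1q calls also ended without the 3 libraries that stand apart (1.54, 1.34 and 1.24, adjusted p = 0.0880, 0.0543 and 0.0659 for c1qa, c1qb and c1qc). That fit had only replicates 3, 6 and 10 as 32 °C controls, and the part of the smaller group was not tested. In a fit of only the 10 libraries compared no chain passed (1.62, 1.34 and 1.29, adjusted p = 0.112, 0.124 and 0.124), and no gene of the whole table did. The call of c1qa also ended with the replicate number as a block, with values given at the end.

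Controls from 24 °C lay between the others. Relative to 28 °C controls they differed by 0.90 ± 0.32 for c1qa (adjusted p = 0.117), 0.60 ± 0.25 for c1qb (adjusted p = 0.171) and 0.46 ± 0.24 for c1qc (adjusted p = 0.295), a comparison in which 2.47% of tested genes were called. Controls from 32 °C minus those from 24 °C gave 0.69 ± 0.32 for c1qa (adjusted p = 0.294), 0.72 ± 0.25 for c1qb (adjusted p = 0.167) and 0.80 ± 0.24 for c1qc (adjusted p = 0.126), with 0.0224% called. For c1qc these 2 control groups did not overlap, as for 0.992% of tested genes.

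Within LPS fish no chain was called between temperatures. LPS fish from 32 °C minus those from 28 °C gave -0.78 ± 0.32 for c1qa, -0.66 ± 0.25 for c1qb and -0.77 ± 0.24 for c1qc, all with adjusted p = 0.999. LPS fish from 24 °C minus those from 28 °C gave -0.33 ± 0.32, -0.27 ± 0.25 and -0.32 ± 0.24 for c1qa, c1qb and c1qc (adjusted p = 0.737, 0.730 and 0.665). LPS fish from 32 °C minus those from 24 °C gave -0.45 ± 0.32, -0.39 ± 0.25 and -0.45 ± 0.24 (adjusted p = 0.918 each). Groups overlapped in all of these comparisons. In each of the 3 comparisons 0% of tested genes were called by edgeR, with 732, 1594 and 754 genes at an unadjusted p under 0.05 in the order given. DESeq2 called 5, 15 and 5 genes and limma voom 0 in each.

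The chains moved together from fish to fish. Over 30 fish, Pearson's r of log2 CPM was 0.941 between c1qa and c1qb, 0.946 between c1qa and c1qc and 0.957 between c1qb and c1qc. Spearman's rho was 0.934, 0.944 and 0.907 for the same pairs, and each permutation p was 1e-05, raw and adjusted over the 3 pairs, the smallest that 100000 resamples give. Without the 2 fish farthest from the median of the first chain, r was 0.918, 0.928 and 0.938 (n = 28). Without the 3 libraries that stand apart it was 0.945, 0.944 and 0.953. With the group means removed, r was still 0.877, 0.908 and 0.910, so fish of the same group that were high in one chain were high in the others.

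The ratio of one chain to another within a fish was steadier than the level of any chain. The count ratio of c1qb to c1qc averaged 1.44 and ran from 1.03 in 28 °C control replicate 2 to 1.77 in 24 °C control replicate 8. Its SD on the log2 scale was 0.17, against 0.57 for the level of c1qb and 0.58 for that of c1qc. The ratios with c1qa varied more: that of c1qa to c1qb averaged 0.642 (0.398 to 0.830, SD 0.28 on the log2 scale) and that of c1qa to c1qc 0.918 (0.592 to 1.22, SD 0.27). These ratios are of counts, which depend on transcript length as well, so they compare fish and do not say which chain is more abundant. Both ratios with c1qa were lowest in the same 3 fish, 24 °C LPS replicate 1, 32 °C LPS replicate 1 and 28 °C control replicate 5. The c1qa to c1qc ratio averaged 0.938 ± 0.0939 in LPS fish and 0.750 ± 0.0867 in control fish at 28 °C. It averaged 0.930 ± 0.269 in LPS fish and 0.955 ± 0.0551 in control fish at 32 °C.

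**Figure D3:**
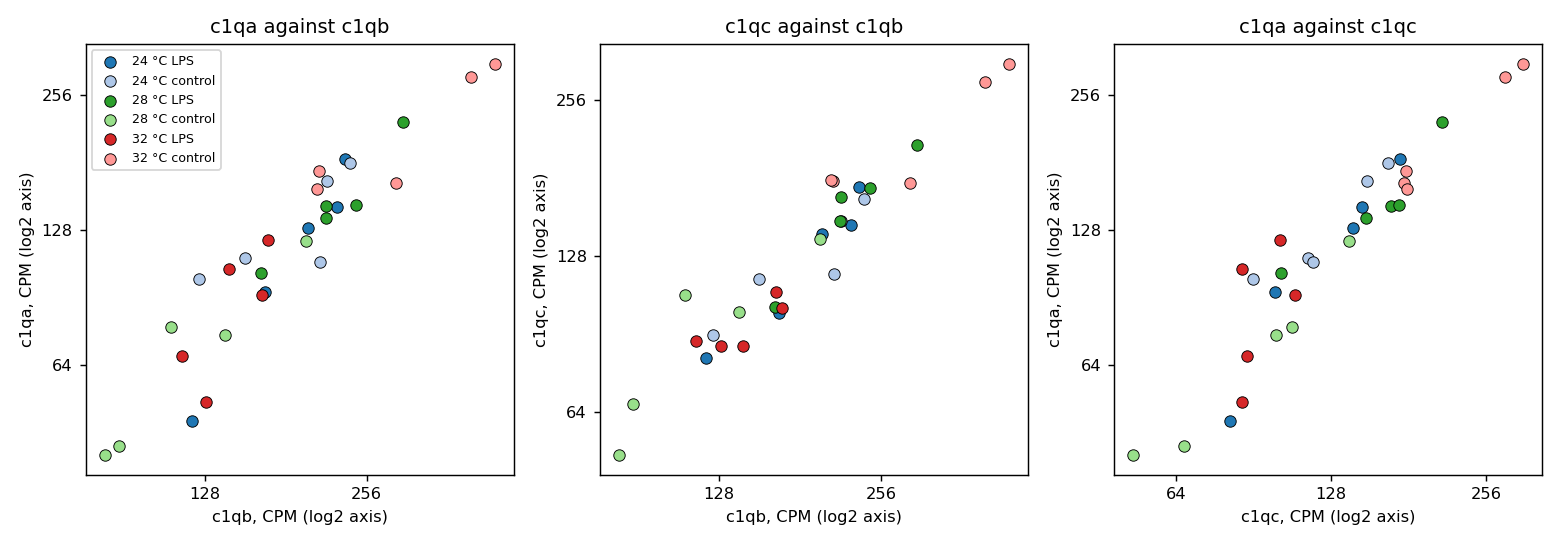
CPM of one chain against another in each of 30 fish (log2 axes), coloured by group. The points follow a rising line in each panel (Pearson's r of 0.941, 0.957 and 0.946 from left to right). At the low end are 2 of the 28 °C control fish, replicates 5 and 7, and at the high end 2 of the 32 °C control fish.

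Among the other complement genes none was called by edgeR in the comparisons in which the chains were called. Of all tested genes, 0.0897% were called lower in the difference of responses and 0.42% higher in the controls. At these shares, 0 calls in lists this short do not set the complement genes apart from tested genes at large. Of the other classical pathway genes, 5 were tested by edgeR, and 0 were called in the difference of the 32 and 28 °C responses or between 32 and 28 °C controls. Their medians were 0.33 and 0.36, against -0.05 and 0.03 over all tested genes. Without the 3 libraries that stand apart they were 0.53 and -0.07, so the sign between the controls turned. c1s.1, a C1s protease of the C1 complex, averaged 52.3 ± 37.2 CPM in LPS fish and 52.3 ± 7.07 CPM in controls at 32 °C, and 51.9 ± 21.7 CPM in LPS fish and 67.5 ± 17.6 CPM in controls at 28 °C. Its difference of responses was 0.38 ± 0.43 (adjusted p = 0.823), of the other sign than that of the chains. c4b, a C4 gene and so a substrate of C1s, had a difference of responses of 0.33 ± 0.56 (adjusted p = 0.893), and c4 of 0.43 ± 1.06 (adjusted p = 0.925). serping1, which encodes the C1 inhibitor, ran from 0 to 16.2 CPM in 32 °C controls and from 0 to 0.113 CPM in 28 °C controls (adjusted p = 0.0852). In the difference of responses 1 of these 5 genes had an unadjusted p under 0.05 and none was called by DESeq2 or limma voom. Between 32 and 28 °C controls, 2 had an unadjusted p under 0.05 and DESeq2 called 2. Of all 17841 tested genes, 1800 had such a p in the difference of responses and 2575 in the controls. DESeq2 called 146 and 625 of them.

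Of 7 alternative and lectin pathway genes tested, 0 were called in either comparison, where 0.0897% of tested genes were called lower and 0.42% higher. Their medians were -0.60 in the difference of responses and 0.83 in the controls, against -0.05 and 0.03 over all tested genes. Without the 3 libraries that stand apart these medians were -0.28 and 0.40. cfd, the factor D protease of the alternative pathway, was the gene of these lists most like the chains (r = 0.64). It averaged 128 ± 39.3 CPM in LPS fish and 195 ± 64.4 CPM in controls at 32 °C, and 145 ± 34.9 CPM in LPS fish and 109 ± 47.1 CPM in controls at 28 °C, with a difference of responses of -1.01 ± 0.45 (adjusted p = 0.449). cfp, properdin, which stabilises the alternative convertase, gave -0.54 ± 0.34 (adjusted p = 0.622). cfbl, a factor B-like gene, gave 0.25 ± 0.38 (adjusted p = 0.880), and the lectin COLEC11 gave -0.53 ± 1.17 (adjusted p = 0.917). DESeq2 and limma voom also called 0 of them in both, with 1 and 2 at an unadjusted p under 0.05 in the difference of responses and in the controls by edgeR. Of all 17841 tested genes, 1800 and 2575 had such a p.

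The values of 14 C3 and terminal pathway genes, components made mainly by the liver in mammals, moved with the libraries that stand apart. Their median log2 difference between 32 and 28 °C controls was 3.81, against 0.03 over all tested genes, yet it was 0.24 without the 3 libraries that stand apart, of which 1 held liver transcripts at 9734 CPM; the part of these transcripts was not tested. In the difference of responses the median was -2.18, and 0.27 without those libraries. No gene of this list was called by edgeR or limma voom in either comparison. By edgeR, 0.0897% of tested genes were called lower in the difference of responses and 0.42% higher in the controls. At an unadjusted p under 0.05 were 9 of the list in the controls and 2 in the difference of responses. Of all 17841 tested genes, 2575 and 1800 had such a p. DESeq2 called 6 in the controls and 0 in the difference, against 625 and 146 of all tested genes. c7a, a component of the membrane attack complex, gave 0.26 ± 0.41 between the controls (adjusted p = 0.841), c7b -0.78 ± 0.89 (adjusted p = 0.757), and the C3 genes c3a.1 and c3a.4 gave 0.96 ± 0.79 (adjusted p = 0.636) and 0.33 ± 0.80 (adjusted p = 0.903). Of 9 complement regulators and receptors, 0 were called by edgeR, DESeq2 or limma voom in either comparison, with 0 at an unadjusted p under 0.05 in the difference of responses and 1 in the controls. Their medians were -0.37 and 0.31, and 0.31 and -0.47 without the 3 libraries. The integrin chain itgb2 gave -0.32 ± 0.38 in the difference of responses (adjusted p = 0.833), the anaphylatoxin receptors c5ar1 and C3AR1 0.56 ± 0.82 (adjusted p = 0.872) and -1.49 ± 0.88 (adjusted p = 0.597), and cfh, factor H, -0.11 ± 0.80 (adjusted p = 0.980).

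Among binding partners of C1q, the immunoglobulin M heavy chain gene ighm, whose antibody is the strongest activator of C1q in mammals, was called in both comparisons in which the chains were. It averaged 79.1 ± 39.1 CPM in LPS fish and 158 ± 88.0 CPM in controls at 32 °C, and 150.1 ± 74.0 CPM in LPS fish and 34.4 ± 19.3 CPM in controls at 28 °C. Its difference of responses was -3.12 ± 0.64 (adjusted p = 0.0396) and its difference between 32 and 28 °C controls 2.199 ± 0.46 (adjusted p = 0.0284). The first call ended in 20 and the second in 5 of 30 fits that left out 1 library, and without the 3 libraries that stand apart only the first was made (values of -3.50 and 2.57). It was the 1 of 12 binding partners called by edgeR in each comparison, where 0.0897% of tested genes were called lower and 0.42% higher. Neither call was made in a fit of only the groups compared or with the replicate number as a block, and limma voom did not make the first. CALR, the chaperone calreticulin that also binds C1q, gave 0.94 ± 0.39 in the difference of responses (adjusted p = 0.404), LRP1 (ENSDARG00000029146), an uptake receptor, 2.398 ± 0.78 (adjusted p = 0.265), and C1QBP, the globular head binding protein, 0.26 ± 0.34 (adjusted p = 0.849). The 12 genes had a median of -1.32 in the difference of responses, -0.12 without the 3 libraries, against -0.05 and 0.02 over all tested genes. Between the controls their median was 1.38, and 0.23 without the 3 libraries, against 0.03 and -0.02 over all tested genes. At an unadjusted p under 0.05 were 7 of the 12 in the difference of responses and 6 in the controls. Of all 17841 tested genes, 1800 and 2575 had such a p. DESeq2 called 1 and 4 of the 12, and limma voom 0 and 1. Of all tested genes DESeq2 called 146 and 625, and limma voom 22 and 83.

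Genes that share the globular C1q domain but not the complement role were not called by edgeR in the comparisons in which the chains were. Of all tested genes, 0.0897% were called lower in the difference of responses and 0.42% higher in the controls. At these shares, 0 calls do not set so short a list apart from tested genes at large. Of 15 members of the C1q and TNF related family, 0 were called in the difference of responses by edgeR, DESeq2 or limma voom and 1 had an unadjusted p under 0.05. Their median was 0.52, or 0.63 without the 3 libraries that stand apart. Between 32 and 28 °C controls 0 were called by edgeR, 1 by DESeq2 and 4 had an unadjusted p under 0.05. The median there was -0.18, or -0.59 without the 3 libraries. Of all 17841 tested genes, 1800 had such a p in the difference of responses and 2575 in the controls. DESeq2 called 146 and 625 of them. c1ql1 averaged 231 ± 91.0 CPM in LPS fish and 370.1 ± 128 CPM in controls at 32 °C and gave -0.85 ± 0.47 (adjusted p = 0.565). The matrix genes emilin1a, emilin1b and mmrn2a gave 1.04 ± 0.49 (adjusted p = 0.477), 1.51 ± 0.95 (adjusted p = 0.624) and 0.52 ± 0.61 (adjusted p = 0.830).

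A few macrophage markers were called in the comparisons in which the chains were called, and the list's median was near 0 in both. Of 45 macrophage markers tested, 1 was called lower in the difference of responses and 2 were called higher in 32 °C against 28 °C controls, where 0.0897% and 0.42% of tested genes were called. The medians were -0.01 and 0.10, against -0.05 and 0.03 over all tested genes. Values lay on both sides of 0, with 22 above and 23 below in the difference of responses and 25 and 20 in the controls. At an unadjusted p under 0.05 there were 16 in each comparison, against 1800 and 2575 of the 17841 tested genes. DESeq2 called 4 and 9 of the 45, against 146 and 625 of all tested genes. Limma voom called 0 of the 45 in each, against 22 and 83 of all tested genes. None of the 4 most abundant members was called by edgeR. Of these, marco, a scavenger receptor, averaged 2020 ± 590.3 CPM in LPS fish and 2021 ± 667 CPM in controls at 32 °C, and its difference of responses was -0.09 ± 0.34 (adjusted p = 0.960). cd68, a lysosomal glycoprotein, gave 0.23 ± 0.28 (adjusted p = 0.836), grna, a progranulin, 0.23 ± 0.41 (adjusted p = 0.898), and LGMN, the lysosomal protease legumain, 1.32 ± 0.45 (adjusted p = 0.297). Summed over 48 matched rows, macrophage markers were at 4301 to 11613 CPM of total counts in LPS fish and 5112 to 13483 CPM in controls at 32 °C. They were at 4140 to 12749 CPM in LPS fish and 7186 to 15205 CPM in controls at 28 °C, with between 0 and 2 rows at 0 in all fish of a group. The member called in both comparisons was apoeb, an apolipoprotein E gene (difference of responses -4.39 ± 0.89, adjusted p = 0.0396; controls 4.30 ± 0.69, adjusted p = 0.00613). apoeb was at 25.6 ± 29.0 CPM in 32 °C controls and 1.29 ± 0.857 CPM in 28 °C controls. Its call in the difference of responses ended in 19 of 30 fits that left out 1 library (-4.77 to -3.47) and without the 3 libraries that stand apart (-3.76). Its call in the controls ended in 0 of the 30 (3.38 to 4.71) and was kept without the 3 libraries (3.67). Neither call was made with limma voom or in a fit of only the groups compared.

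Likeness to the chains was measured as Pearson's r between a gene's log2 CPM and the mean of the 3 standardised chains over 30 fish, and is a description, since all genes share libraries and scaling. Over all tested genes the median r was 0.01, and 2.77% of genes had an r over 0.5. Macrophage markers ran from -0.57 to 0.88 with a median of 0.16, and 6 of 45 were over 0.5. Among these 6 were MPEG1 (ENSDARG00000055290, a perforin-like macrophage gene, 0.80) and ctss2.2, a cathepsin S (0.66). At the bottom were the chemokine ccl35.1 (-0.57) and the inflammatory cytokine genes il1b (-0.55) and tnfa (-0.51). Antigen presentation genes of the MHC class II list had 3 of 9 over 0.5, namely cd74b (0.78) and cd74a (0.75), invariant chain genes, and ciita (0.63), the class II transactivator. B cell markers had a median of 0.40 and 6 of 21 over 0.5, with cd79a, a B cell receptor subunit, at 0.73. Neutrophil markers lay on the other side, with 17 of 19 below 0 and a median of -0.38.

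**Figure D4:**
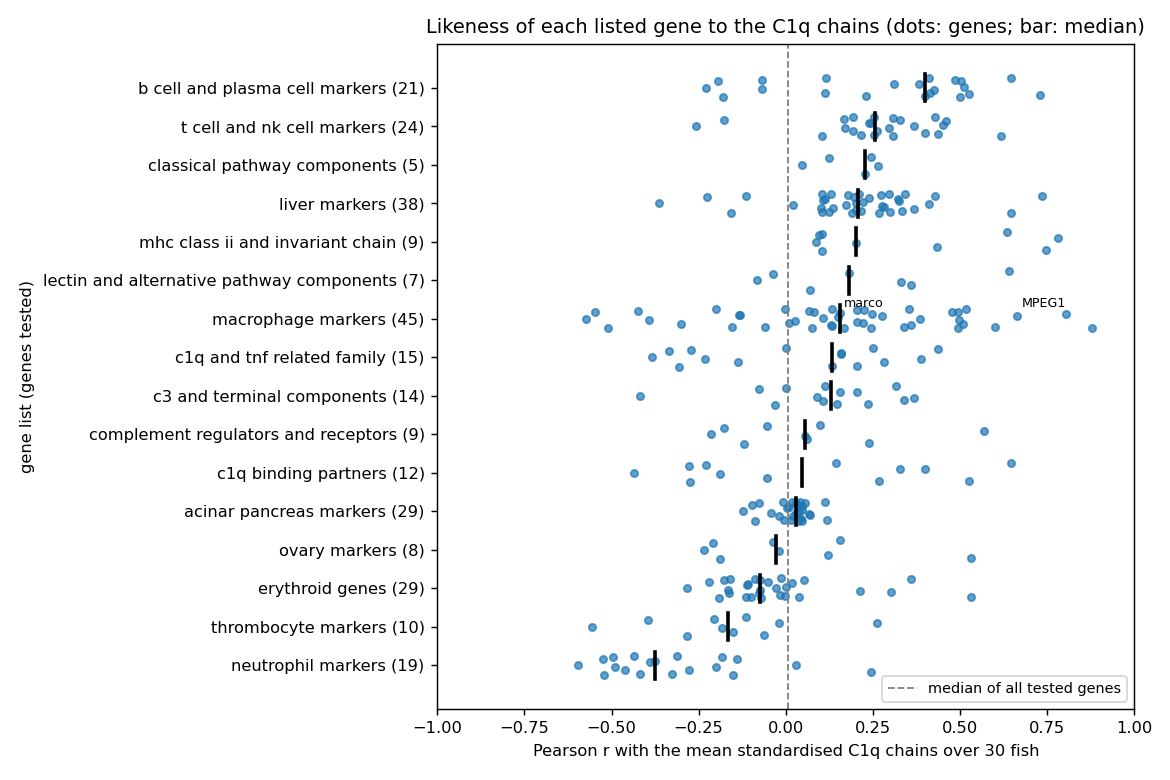
Pearson's r between each listed gene and the mean standardised C1q chains over 30 fish (dots), with the median of each list (bar) and the median of all tested genes (dashed line). Macrophage markers spread from -0.57 to 0.88, acinar pancreas markers stay near 0 (-0.12 to 0.12) and neutrophil markers lie mostly below 0.

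Members of several of these lists were called in the same comparisons as the chains. Of 9 MHC class II list genes, 2 were called lower in the difference of responses and 3 higher in 32 °C controls. Of 21 B cell markers, 2 were called lower and 2 higher, against 0.0897% and 0.42% of tested genes. Medians were -0.43 and 0.22 for the MHC class II list and -1.35 and 0.54 for the B cell list. Those of all tested genes were -0.05 and 0.03. Between the controls, 2 of the 9 and 6 of the 21 were below 0. cd74a and cd74b gave -3.13 ± 0.52 and -2.70 ± 0.49 in the difference of responses (adjusted p = 0.0154 and 0.0159), and cd79a gave -3.40 ± 0.60 (adjusted p = 0.0159). In 32 °C against 28 °C controls they gave 2.36 ± 0.38, 2.05 ± 0.35 and 2.31 ± 0.43 (adjusted p = 0.00613, 0.0114 and 0.0168), and ciita 1.62 ± 0.33 (adjusted p = 0.0254). The calls of these 4 genes ended without the 3 libraries that stand apart, except that of cd74a in the difference of responses (-2.54). The other B cell marker called in both comparisons was ighm, given above among binding partners. Without the 3 libraries its call was kept in the difference of responses (-3.50) and ended in the controls (2.57). Genes of the MHC class II list summed to 570 to 1106 CPM in LPS fish and 1193 to 4902 CPM in controls at 32 °C, without overlap (1193 to 2670 CPM in controls without the 3 libraries). They summed to 612 to 1603 CPM in LPS fish and 365 to 966 CPM in controls at 28 °C. Of 19 neutrophil markers, 2 were called lower in 32 °C controls, where 0.213% of tested genes were called lower: cxcr1, a chemokine receptor (-3.50, adjusted p = 0.0146), and NCF4, a subunit of the phagocyte oxidase (-1.06, adjusted p = 0.0280). Both calls ended without the 3 libraries that stand apart (-3.64 and -0.97), and that of cxcr1 with limma voom. Acinar pancreas markers summed to 263 to 15850 CPM in LPS fish and 1014 to 29087 CPM in controls at 32 °C. At 28 °C they summed to 1539 to 62098 CPM in LPS fish and 531 to 41143 CPM in controls. No library from 28 °C was among the 3 that stand apart. Of the liver list, 3 of 38, F10, cyp2ad3 and uox, were called higher in 32 °C controls, where 0.42% of tested genes were. All 3 calls ended without the 3 libraries that stand apart, where uox was at 2.64, against 6.49 with them, and those of F10 and uox each ended in 23 of 30 fits that left out 1 library. The list's median was 4.71, or 0.29 without the 3 libraries. Of the T and NK cell, thrombocyte, erythroid, acinar pancreas and ovary lists (24, 10, 29, 29 and 8 genes tested), edgeR called 0 in either comparison. At an unadjusted p under 0.05 they had 3, 2, 2, 0 and 0 genes in the difference of responses and 4, 1, 3, 0 and 1 in the controls. DESeq2 called 0 of these genes in the difference of responses, and in the controls 1 of the T and NK cell and 1 of the erythroid list. Of all 17841 tested genes, 1800 and 2575 had an unadjusted p under 0.05, and DESeq2 called 146 and 625. The part of any of these lists in the C1q differences was not tested. With the acinar pancreas sum as a covariate the C1q differences of responses were -2.67, -2.22 and -2.27 for c1qa, c1qb and c1qc, with adjusted p = 0.00677, 0.00457 and 0.00425.

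Of the genes with a symbol and a mean of at least 5 CPM, 11000 were ranked by likeness. Among the 10 most like the chains over 30 fish were GM2A (r = 0.884), the activator protein of lysosomal GM2 breakdown, CALHM6 (0.868), a calcium homeostasis modulator channel gene, and the tetraspanin cd9a (0.826). Others of the 10 were zgc:64065 (0.815), the ubiquitin ligase RNF130 (0.806), the monoamine oxidase mao (0.805), MPEG1 (0.803) and the membrane-spanning 4A gene ms4a17a.10 (0.803). When the 3 libraries that stand apart were left out, a choice made here after seeing the data, 7 of these 10 were again in the top 10.

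The group mean of GM2A was highest in 32 °C controls and lowest in 28 °C controls, as those of the chains were. It averaged 55.0 ± 6.08 CPM in LPS fish and 90.0 ± 28.7 CPM in controls at 32 °C, and 69.8 ± 5.93 CPM in LPS fish and 51.0 ± 15.3 CPM in controls at 28 °C. The difference of responses was -1.16 ± 0.26 for GM2A (adjusted p = 0.0736), not past the threshold. It was called for ms4a17a.10 (-2.36 ± 0.42, adjusted p = 0.0159) and zgc:64065 (-2.73 ± 0.53, adjusted p = 0.0315), where 0.0897% of tested genes were called lower. In 32 °C against 28 °C controls, 7 of the 10 were called higher, against 0.42% of tested genes. Among the 7 were mao (1.16 ± 0.23, adjusted p = 0.0176), cd9a (0.96 ± 0.22, adjusted p = 0.0406), GM2A (0.82 ± 0.19, adjusted p = 0.0406), ms4a17a.10 (1.59 ± 0.30, adjusted p = 0.0176) and zgc:64065 (2.25 ± 0.39, adjusted p = 0.0114). The control calls of GM2A and cd9a ended in 17 and 16 of 30 fits that left out 1 library, and all calls given here for the 10 genes ended without the 3 libraries that stand apart. These genes were picked for their likeness over the same fish, so their group differences are a description.

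**Figure D5:**
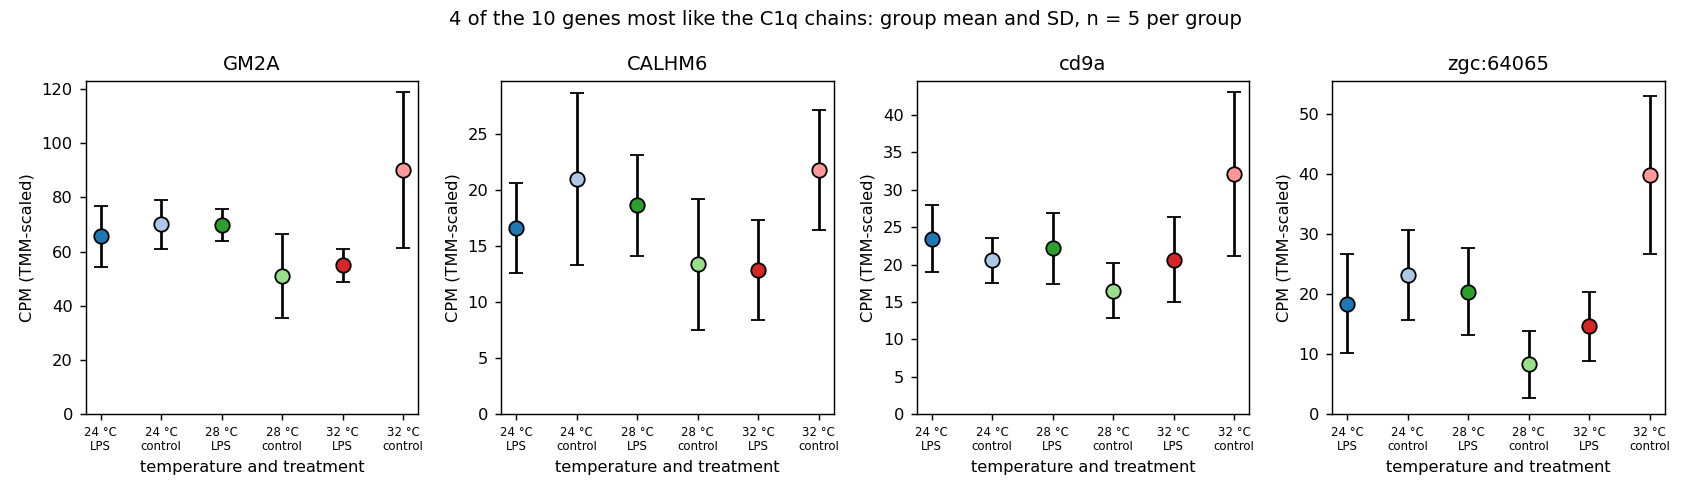
Group mean and SD (n = 5 fish each) of CPM of GM2A, CALHM6, cd9a and zgc:64065, 4 of the 10 genes with the highest r to the C1q chains over 30 fish. For GM2A, 32 °C control fish have the highest mean (90.0 CPM) and 28 °C control fish the lowest (51.0 CPM).

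With the group means removed, so that likeness comes from fish of the same group, the 10 genes changed in part. CALHM6 led (r = 0.886), followed by FUCA2 (0.838), a fucosidase, igf2b (0.834), an insulin-like growth factor, and DPP7 (0.813), a lysosomal peptidase. Others of these 10 were the regucalcin gene RGN (0.795), ADAP2 (0.783), GM2A (0.770), mao (0.759) and CXCR3 (0.754, ENSDARG00000007358), a chemokine receptor. In all 4 genes were in both lists of 10, among them CALHM6, GM2A and mao. FUCA2 and DPP7 had lower r over all 30 fish with group means kept, 0.527 and 0.387. Their differences of responses were -0.29 ± 0.27 (adjusted p = 0.772) and 0.03 ± 0.27 (adjusted p = 0.982).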

How the data were processed

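RNA of 30 zebrafish spleens was sequenced from poly(A)-selected, directional libraries, per the labels' protocols. The submitters' processing notes name the build GRCz11 and the tools STAR, cutadapt 1.12, bcl2fastq, FastQC 0.11.5 and DESeq2 1.11.1. What program, annotation and strand setting gave the counts is not stated, so reads of overlapping or antisense genes may be shared. The authors deposited raw counts per gene as whole numbers, with no scaling. A names table matched 29178 of the 31901 IDs to a symbol.

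In R 4.3.3, edgeR 4.0.16 took the 17841 genes that filterByExpr left, scaled libraries by TMM and fitted all 30 in one robust quasi-likelihood model with 6 group means (24 residual degrees of freedom, common biological coefficient of variation 0.503). P-values were adjusted by Benjamini-Hochberg over all tested genes, and a call needs an adjusted p under 0.05. SEs are the log2 difference divided by the square root of F. Log2 CPM for correlations used a prior count of 2. Marker sums are relative to total counts. No pair of libraries of a group was a possible duplicate (chi-square over degrees of freedom at least 31.7 in 60 pairs). The model script was tested on simulated data.

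The chains, gene lists and comparisons were chosen with earlier results of these data known. Named genes are the chains, the 10 genes of at least 5 CPM most like them with and without group means, and up to 4 tested members of each complement, C1q-related and macrophage list with the highest mean. Called members of the lists and those at the ends of a likeness range were named after their values were seen, and the other cell type lists are given by sums and counts. Alternatives were DESeq2 size factors, no filter, 1 CPM in 5 libraries, DESeq2 1.42.0, limma 3.58.1 voom with quality weights, only the groups compared, the replicate number as a block, and each library left out. An acinar pancreas covariate and leaving out the 3 libraries that stand apart, known from earlier results, were tried too (for likeness and marker sums, after seeing the data). Some genes that this rule names are not reported here. The labels name no batch. No promoter or protein sequence was used here.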

Additional observations from a re-analysis of the deposited data

Results flagged for a closer look

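The response to LPS differed between fish from 32 °C and fish from 28 °C for all 3 chains by the test of the difference itself (edgeR). The values were -2.37 for c1qa, -1.98 for c1qb and -2.03 for c1qc on the log2 scale. LPS fish were lower than controls in 32 °C fish without overlap, as for 0.824% of tested genes. In 28 °C fish they had the higher mean, with overlap. By edgeR, LPS against control passed the threshold for no chain at either temperature. In the difference of responses 0.0897% of tested genes were called lower. The direction was kept with any 1 library left out, with values of -2.59 to -2.09 for c1qa, -2.16 to -1.78 for c1qb and -2.16 to -1.83 for c1qc. The call was kept in all 30 of these fits for c1qc, in 18 for c1qa and in 24 for c1qb. In a fit of only the groups compared none of the 3 was called (adjusted p = 0.0643 for c1qa and c1qb and 0.0631 for c1qc). None of the 3 was called with the replicate number as a block either. In none of 18 chain and group combinations did a single fish stand far from the other 4 of its group by Dixon's criterion. That criterion weighs 1 fish at a time, so it cannot flag 2 high fish together. Among 32 °C controls, replicates 3 and 8 were at 301 and 281 CPM for c1qa, and the others at 158 to 173 CPM. For c1qc replicates 3 and 8 were at 302 and 278 CPM, and the others at 177 to 179.5 CPM. Replicate 8 is the library with liver transcripts.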

How the results depend on the processing

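The direction of each C1q difference was kept in every alternative, except in LPS against control at 24 °C (13 of 117 values changed sign) and averaged over the temperatures (1 of 114). At 24 °C, c1qb turned to -0.17 with limma voom, -0.031 with the replicate number as a block and -0.11 without the 3 libraries that stand apart, and c1qc to -0.16 with limma voom and -0.091 without the 3 libraries. Leaving out 1 library gave -0.36 to 0.11 for c1qa, -0.080 to 0.19 for c1qb and -0.12 to 0.19 for c1qc there, and -0.11 to 0.017 for c1qb averaged over the temperatures. At 32 °C, LPS against control passed the threshold with DESeq2 for c1qb (-1.09) and c1qc (-1.23), and with the acinar pancreas covariate (-1.29 and -1.42). It passed in no other setting, and in no fit that left out 1 library.

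The difference between the 32 and 28 °C responses missed the threshold with the replicate block, described below, in a fit of only the groups compared (-2.30, -1.91 and -1.96 for c1qa, c1qb and c1qc) and, for c1qa, without the 3 libraries (-2.32). Leaving out 1 library gave -2.59 to -2.09 for c1qa, -2.16 to -1.78 for c1qb and -2.16 to -1.83 for c1qc. Between 32 and 28 °C controls the threshold was missed with the replicate block for c1qa, with only the groups compared (1.62, 1.34 and 1.29) and without the 3 libraries (1.54, 1.34 and 1.24). Leaving out 1 library gave 1.38 to 1.82, 1.15 to 1.51 and 1.09 to 1.399. In both comparisons all 3 chains passed with DESeq2, limma voom, the covariate and no filter.

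The count of genes called in the difference of responses, 20, was 13 with no filter, 146 with DESeq2, 0 with only the groups compared, 8 without the 3 libraries, 78 with the covariate and 5 to 52 with 1 library left out. Between the controls it was 113, and 47, 625, 0, 2, 232 and 4 to 506 under the same alternatives. DESeq2 called 274, 69 and 16 genes for LPS at 24, 28 and 32 °C, against 3, 2 and 1 by edgeR. Of 7 other genes of the lists and likeness ranks called in the difference of responses, 5 were called with limma voom, 7 with DESeq2 and 2 without the 3 libraries, and of 18 in the controls 10, 18 and 1.

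Replicate numbers were compared within a temperature. Deviations from the group means in 9 pairs of same-numbered LPS and control fish correlated at -0.14 to 0.44, 3 of them over 0.1. In 3 pairs the fish correlated best with its own number. With only 9 pairs, these values cannot settle whether the numbers pair the fish. The block shared each number across all temperatures. Numbers 6 and 10 occur only in 32 °C controls and 7 only in 28 °C controls. Those libraries are fitted exactly in the block model and add nothing to its comparisons. The 32 °C controls that do are replicates 2, 3 and 8, and 2 and 8 are libraries that stand apart. The block fit is thus not a test of pairing alone. With the replicate number as a block the difference of responses was -2.30, -1.87 and -1.94 (adjusted p = 0.0779, 0.0640 and 0.0548), the difference between controls 1.53 for c1qa (adjusted p = 0.0672), and the counts of calls 41 and 419. The cause of these changes was not tested. Each chain had at least 700 raw counts in every library.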
